A study of Homo sapiens with 3 samples.

Results

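The RNA of MCF10Ca1h cells given a control compound was compared with that of untreated cells, gene by gene, over 13221 genes. These were all genes that reached 1 CPM (a read count scaled to library size) in either library, of 56632 gene IDs in the deposited tables. MCF10Ca1h is an established, tumour-forming human breast cancer line of the MCF10 series. The untreated library is called NT. The library of cells given the control compound for 72 h is called CON. The labels call this compound GSK107, and the deposited table carries another number for it, so it is named here only by its role. Another library, called GSK484 after the compound given for 72 h, is shown beside both. All cells were grown in DMEM/F12 with 5% horse serum, and the labels state no dose and no time for NT. Each group was 1 library with no replicate, so differences are between libraries, no test between conditions was possible, and intervals cover counting error only.

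GSK484 inhibits PADI4, a peptidylarginine deiminase whose reaction, citrullination, converts arginine to citrulline in histones and other proteins. A control compound is given so that a response to an inhibitor can be read against cells handled in the same way without it. The difference between such cells and untreated cells is therefore a background against which inhibitor responses in this series are seen. Genes of different make-up differ in how they appear in RNA libraries, so the difference is described here also by base composition and length.

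NT had 70555229 expected counts, CON 92980847 and GSK484 77220120. In these libraries 12989, 13026 and 13010 genes reached 1 CPM. The share of counts on mitochondrially encoded genes was 4.78% in NT (95% Wilson interval 4.78% to 4.79%), 5.33% in CON (5.33% to 5.33%) and 4.03% for GSK484 (4.03% to 4.04%). Where no read was counted, a level of up to 3 counts remains possible, equal to 0.042, 0.033 and 0.039 CPM in NT, CON and GSK484. All 8 defining markers of squamous and mammary epithelium were measured, among them KRT18 at 4467 CPM in NT against 4626 in CON and 4743 in GSK484, KRT5 at 1287 CPM in NT against 1212 in CON and 1453 in GSK484 and TP63 at 34.2 CPM in NT against 31.5 in CON and 34.7 in GSK484. Of these 8 markers, 5 were higher and 2 lower beyond counting error, and the median of their log2 folds was 0.04. Scaled to total counts, 3 were higher and 3 lower. Of the 15 leukocyte markers 5 were measured, and 7 of the 15 had a count of 0 in both NT and CON, PTPRC and CD3D among them. Of the 5 measured, 3 were higher and 0 lower beyond counting error, CXCR5 (described below) being the 1 past the rule of size. Scaled to total counts, 3 of these 5 were higher and 2 lower. Of 11 fibroblast markers 3 were measured, with summed levels of 26.3, 24.2 and 27.5 CPM, and COL3A1 and DCN had a count of 0 in every library. Of 7 endothelial markers 6 were matched to a gene ID, and PECAM1 was not. Only CDH5 was measured, with a log2 fold of 0.69, higher beyond counting error. The matched markers summed to 1.73, 2.13 and 1.87 CPM. Of 9 adipocyte and erythroid markers only FABP4 was measured, with sums of 2.96, 3.08 and 2.62 CPM.

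Most genes were close to the same level in both libraries. The log2 fold of CON over NT had a median of 0.03 over all measured genes, the middle 50% of genes lay between -0.16 and 0.16, and the median size of the log2 fold was 0.16. At this depth small differences exceeded counting error. At the 95% level 4695 genes (35.5%) were higher and 3889 (29.4%) lower in CON beyond counting error, meaning that the exact binomial interval of the fold excluded no difference. A rule of size, used in place of a test, asked in addition for a fold of at least 2. By that rule 44 genes (0.333%) were higher and 178 genes (1.35%) were lower in CON. The balance of small differences turned with the scaling: DESeq2 size factors gave 4184 higher and 4218 lower beyond counting error, and total counts gave 3636 and 4651. The larger differences leaned 1 way, with lower genes making up 80.2% of the calls by the rule of size. In bulk RNA, fewer cells of a type and less RNA per cell cannot be told apart.

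**Figure D1:**
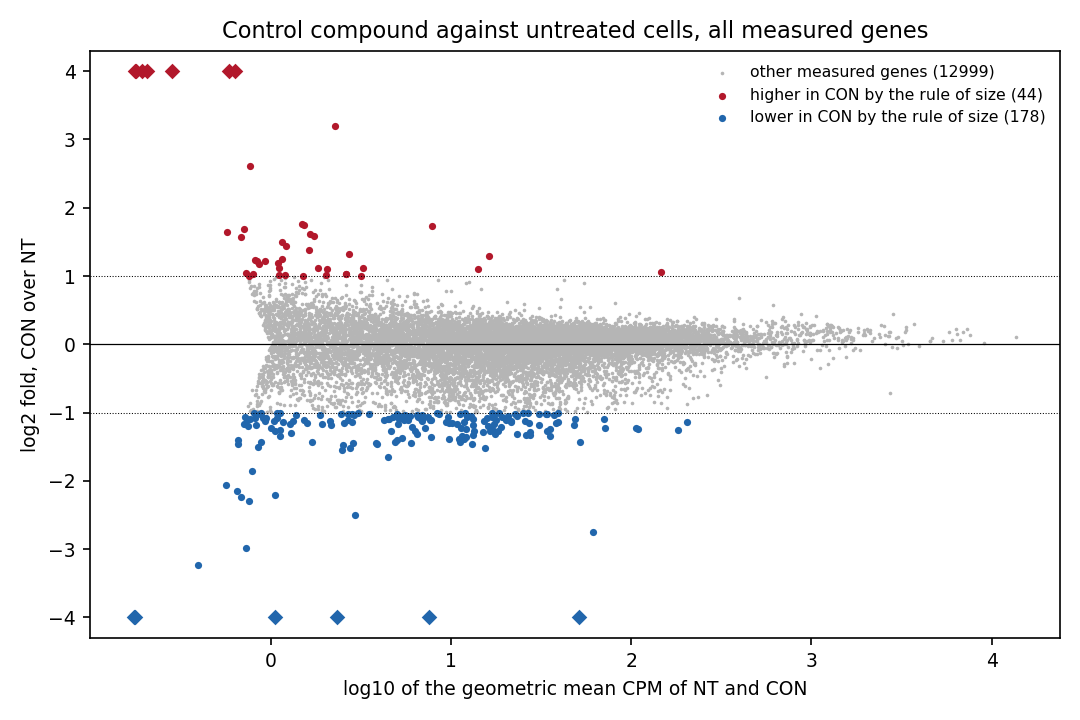
The log2 fold of CON over NT (vertical) is plotted against the log10 of the geometric mean CPM of NT and CON (horizontal) for 13221 genes. A CPM under 0.03 is drawn at 0.03, 13 genes past a log2 fold of 4 in either direction are drawn as diamonds at that limit, and the dotted lines mark a fold of 2. The 178 lower genes (blue) lie at all levels up to above 100 CPM, while the 44 higher genes (red) lie mostly at low levels.

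Level and direction went together among the called genes. Where the larger CPM was between 1 and 5, 38 of 2634 genes were higher and 60 lower by the rule of size. Between 10 and 50 CPM the counts were 4 and 72 of 5142 genes. At 50 CPM or more they were 1 and 19 of 4067 genes, and the median size of the log2 fold there was 0.12. The median half-width of the counting interval fell from 0.33 on the log2 scale in the lowest of these ranges to 0.05 at 50 CPM or more. Of the 178 lower genes 145 were protein-coding, against 15 of the 44 higher genes. Whole counts in both libraries are what an estimate gives where no read is divided between genes. They were found in 123 of the lower genes and 9 of the higher genes.

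Ranked by the interval bound nearest to 0, the first lower genes with whole counts at any level were weakly expressed, POMK (described below) and the pseudogene ANKRD36BP1, at 2.30, 0.493 and 0.655 CPM in NT, CON and GSK484 (log2 fold -2.21). Both entered the measured set only through NT, where they were high. Among protein-coding genes of at least 50 CPM with whole counts, SYNE2, DST and CENPF came first. DST (ENSG00000151914), which codes for dystonin, a linker of intermediate filaments to hemidesmosomes, was at 279.6 CPM in NT against 118 in CON and 205 in GSK484 (log2 fold -1.25, interval -1.28 to -1.22). CENPF (ENSG00000117724), a kinetochore protein gene of late cell cycle cells, was at 164 CPM in NT against 69.8 in CON and 112 in GSK484 (log2 fold -1.23, interval -1.28 to -1.19). SYNE2 (ENSG00000054654), which codes for nesprin-2 of the nuclear envelope, was at 56.3 CPM in NT against 22.3 in CON and 38.7 in GSK484 (log2 fold -1.34, interval -1.42 to -1.26). All were lowest in CON, highest in NT and intermediate in GSK484. With the trend on GC content and length described below removed, the log2 folds were -0.94, -0.96 and -1.11, so that DST and CENPF no longer reached a fold of 2. Such large folds at such levels leave narrow counting intervals, and the spread between replicate cultures is not known.

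Long genes with little A in the coding sequence did not show this. FASN (fatty acid synthase), NBEAL2 (a protein of platelet granules) and NOTCH1 (a receptor of the Notch pathway), chosen after their values were seen, have coding sequences of 7533, 8262 and 7665 bases. FASN was at 1291 CPM in NT against 1375 in CON and 1478 in GSK484 (log2 fold 0.09). NBEAL2 was at 150.1 CPM in NT against 164 in CON and 153 in GSK484 (log2 fold 0.13), and NOTCH1 was at 151 CPM in NT against 162 in CON and 179 in GSK484 (log2 fold 0.11). The coding sequences of both sets are shown for their base composition, with A in capitals. The longest annotated coding sequence of each gene in GENCODE 29 (GRCh38) was used, and which transcript these cells express was not examined. Each sequence shown is the stretch of 90 coding bases, in frame, whose composition is nearest to that of the whole coding sequence. It runs from base 12421 to 12510 of the coding sequence in SYNE2, from 8371 to 8460 in DST, from 3691 to 3780 in CENPF, from 4411 to 4500 in FASN, from 6751 to 6840 in NBEAL2 and from 3421 to 3510 in NOTCH1.
SYNE2: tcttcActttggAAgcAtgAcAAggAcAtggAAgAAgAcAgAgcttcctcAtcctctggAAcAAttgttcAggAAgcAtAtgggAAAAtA
DST: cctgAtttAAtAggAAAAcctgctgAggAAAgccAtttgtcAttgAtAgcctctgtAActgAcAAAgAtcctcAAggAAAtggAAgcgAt
CENPF: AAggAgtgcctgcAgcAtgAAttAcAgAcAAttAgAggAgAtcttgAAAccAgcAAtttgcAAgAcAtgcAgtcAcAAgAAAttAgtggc
FASN: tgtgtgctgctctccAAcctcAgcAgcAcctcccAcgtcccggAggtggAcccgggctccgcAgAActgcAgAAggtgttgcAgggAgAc
NBEAL2: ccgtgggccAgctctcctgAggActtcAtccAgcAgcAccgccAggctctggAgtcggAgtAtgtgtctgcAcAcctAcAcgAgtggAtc
NOTCH1: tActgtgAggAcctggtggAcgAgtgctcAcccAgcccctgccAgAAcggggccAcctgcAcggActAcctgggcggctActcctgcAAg
A stood at 31 of 90 bases in SYNE2, 31 in DST and 34 in CENPF, and at 17 of 90 in each of FASN, NBEAL2 and NOTCH1. Over the whole coding sequence the A content was 34.2%, 34.7% and 37.7% in the lower genes and 17.5%, 18.7% and 18.6% in the other set. Codons rich in A include those of lysine, asparagine and glutamate.

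Across all genes the log2 fold followed base composition. The genes were divided into 6 equal parts by the GC content of their longest transcript. The median log2 fold rose from -0.35 in the lowest sixth (27.8% to 40.2% GC) through -0.13, 0.00, 0.07 and 0.11 to 0.15 in the highest (59.1% to 74.7%). In the lowest sixth 1600 of 2142 genes were lower and 134 higher beyond counting error, and in the highest 58 were lower and 1415 higher. The lowest sixth held 124 genes that were lower by the rule of size, and the highest held 3. The share of all counts on genes of the lowest sixth was 9.11% in NT against 7.36% in CON and 8.29% in GSK484.

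The same order was seen inside the coding sequence. By its A content, the median log2 fold was 0.14, 0.09, 0.06, -0.02, -0.12 and -0.32 from the lowest to the highest sixth, and the lower calls were 1, 1, 4, 9, 18 and 112. By coding length the medians ran from 0.13 in the shortest sixth to -0.10 in the longest, with 5 and 97 lower calls. The lower genes were densest where both were high. Of the 145 lower protein-coding genes 86 were in the upper sixth of both A content and coding length, a corner that held 413 of the 11729 measured protein-coding genes. Among 78 genes with a coding sequence of at least 6000 bases and A content in the upper sixth, the median was -0.91 and 33 (42.3%) were lower by the rule of size. Among 29 genes as long but in the lower sixth of A content, the median was 0.10 and 0 were lower by that rule. At the other end, 1381 genes with a coding sequence under 600 bases had a median of 0.14.

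**Figure D2:**
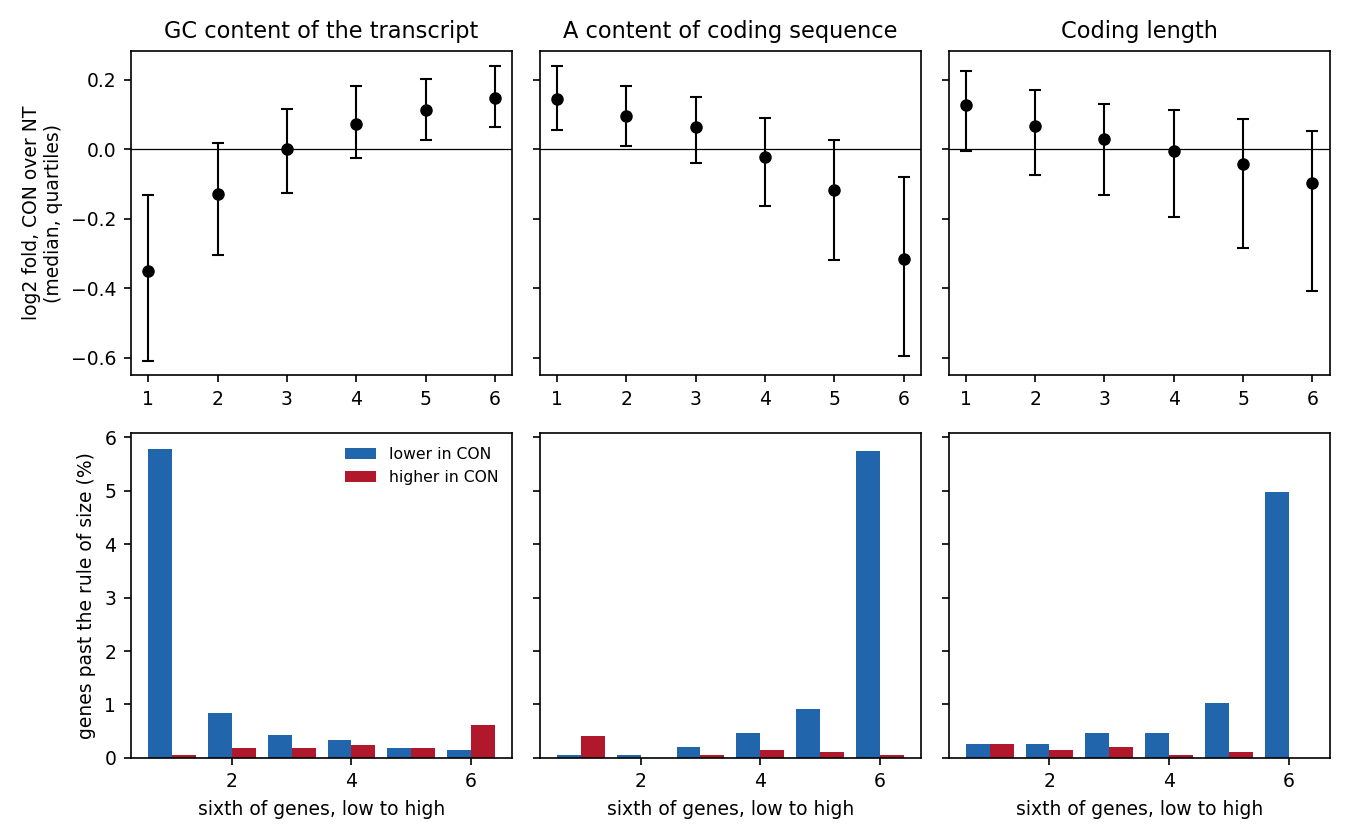
Genes were divided into 6 equal parts by GC content of the longest transcript, A content of the coding sequence and coding length (left to right, horizontal axes from the lowest to the highest sixth). The upper panels give the median log2 fold of CON over NT with its quartiles as bars, and the lower panels the percentage of genes past the rule of size in each direction. The median runs from -0.35 to 0.15 with GC content and from 0.14 to -0.32 with A content, and the blue bars stand mostly in 1 sixth of each panel.

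**Figure D3:**
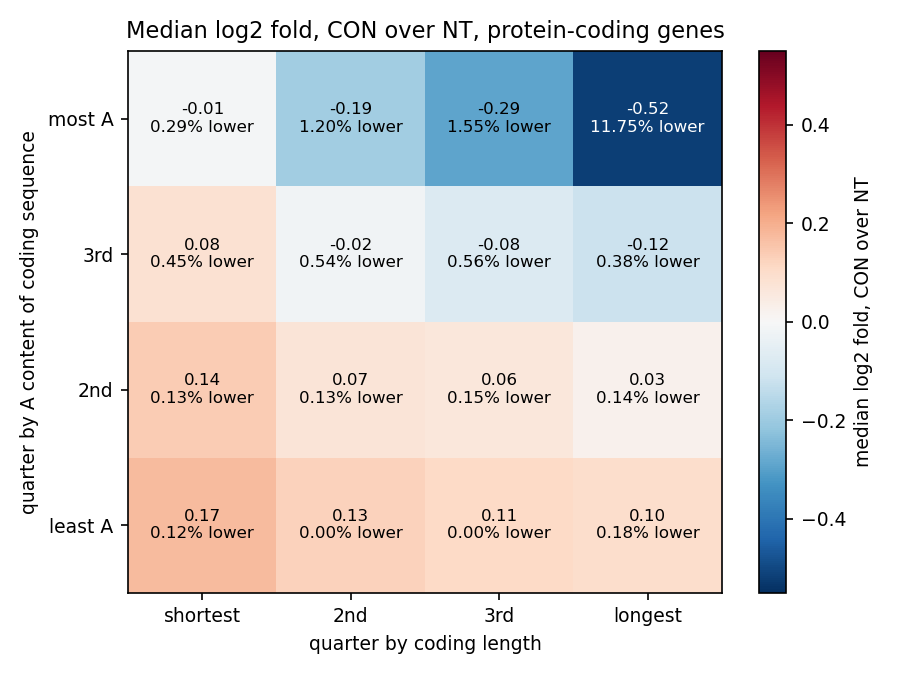
Protein-coding genes were divided into 4 equal parts by A content of the coding sequence (vertical) and 4 by coding length (horizontal). Each field gives the median log2 fold of CON over NT, by colour and number, and the percentage of its genes that were lower by the rule of size. The field of the longest genes with the most A stands at -0.52 with 11.75% lower, and in the row with the least A the medians lie between 0.10 and 0.17.

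Spearman's rho between log2 fold and each property was taken over protein-coding genes of at least 10 CPM in both libraries. It describes these libraries only, since genes share both libraries and their depths. It was 0.65 with GC content and -0.52 with effective length (8418 genes), and -0.57 with A content, -0.48 with T content, 0.57 with C content, 0.54 with G content and -0.35 with length of the coding sequence (8408 genes). Effective length is the number of positions where a sequenced fragment can start. Length minus effective length, over 6850 genes with 1 transcript, had a median of 187.74 bases in NT against 180.65 in CON and 177.25 in GSK484, so the estimated fragments were longest in NT. The part of fragment length and of base composition of the libraries in these differences was not tested. A smooth trend on GC content and effective length, fitted over 8418 genes (R squared 0.586), was removed to see which genes remained. Then 43 of the 178 lower genes and 18 of the 44 higher genes were still past the rule of size. GC content was not known for 13 of the lower and 13 of the higher genes, which therefore could not remain.

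The mitosis and kinetochore genes, which build and check the spindle, were lower as a list: of 40 measured members, 7 were higher and 31 were lower in CON beyond counting error. The median of their log2 folds was -0.38, 7 were lower by the rule of size, and the median was -0.17 with the trend removed. KIF14, a kinesin of cytokinesis, was at 26.3 CPM in NT against 9.13 in CON and 16.8 in GSK484 (log2 fold -1.52, interval -1.64 to -1.41). KNL1, the kinetochore scaffold, was at 36.5 CPM in NT against 14.7 in CON and 24.6 in GSK484 (log2 fold -1.31, interval -1.41 to -1.22). CENPE, a kinesin that aligns chromosomes, was at 52.8 CPM in NT against 22 in CON and 40.4 in GSK484 (log2 fold -1.26, interval -1.34 to -1.18). Without the trend these were at -1.07, -0.92 and -0.68, and KNL1 and CENPE lost their call. CCNB1, PLK1 and AURKB, members with shorter or less A-rich coding sequences, were chosen after their values were seen. They did not share the difference and do not stand for other such members. CCNB1, the mitotic cyclin, was at 260.3, 259 and 260.0 CPM in NT, CON and GSK484. PLK1, a mitotic kinase, was at 155, 168 and 160.4 CPM in NT, CON and GSK484 (log2 fold 0.12), and AURKB, the kinase of the chromosomal passenger complex, at 75.8, 84.9 and 85.6 CPM in NT, CON and GSK484 (log2 fold 0.16). MKI67, the proliferation marker Ki-67, likewise chosen afterwards, has a coding sequence of 9768 bases with 35.98% A and was at 341, 203 and 319 CPM in NT, CON and GSK484 (log2 fold -0.75). The part of coding length, A content and cell cycle in the values of these genes was not tested. Genes of DNA replication, another proliferation list, stood near the background, with 18 of 38 higher, 12 lower and a median of 0.04. By total counts 11 were higher and 14 lower, and with the trend removed the median was -0.016.

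Golgins and long coiled-coil tethers, which capture vesicles or hold centrosomes together, showed the lowest median of all 45 lists. Of 25 measured members, 0 were higher and 22 were lower in CON beyond counting error. The median was -1.09, 14 were lower by the rule of size, and with the trend removed the median was -0.65. EEA1, the early endosome tether, was at 7.97 CPM in NT against 2.54 in CON and 5.06 in GSK484 (log2 fold -1.65, interval -1.87 to -1.42). CCDC186, a protein of dense core vesicle formation, was at 6.31 CPM in NT against 2.32 in CON and 4.43 in GSK484 (log2 fold -1.44, interval -1.68 to -1.20). AKAP9, a scaffold of Golgi and centrosome, was at 23.5 CPM in NT against 9.68 in CON and 14.8 in GSK484 (log2 fold -1.28, interval -1.40 to -1.16). Each was lowest in CON and highest in NT. Without the trend they were at -1.04, -0.88 and -0.89, and CCDC186 and AKAP9 lost their call. GOLGA4, a golgin of the trans-Golgi, had counts shared out with other genes and was at 85.1, 31.6 and 62.1 CPM in NT, CON and GSK484 (log2 fold -1.43). GOLGA2 and PCNT, members of higher GC content, were chosen after their values were seen. They were level and do not stand for other such members. GOLGA2 (54.8% GC) was at 56.2, 55.1 and 53.3 CPM in NT, CON and GSK484. The centrosomal PCNT (56.0% GC), whose coding sequence has 10008 bases, was at 44.9, 46.6 and 50.1 CPM in NT, CON and GSK484. The list was chosen with the lower long genes known, so its median is no independent sign of their direction.

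Chromatin remodellers and histone methyltransferases, which move nucleosomes or mark histones, were more often lower than higher in CON. Of 38 measured members, 7 were higher and 23 were lower beyond counting error, against 35.5% and 29.4% of all measured genes. The median was -0.12, and -0.05 with the trend removed. Their median coding length was 5767.5 bases. Of 323 genes with a coding sequence of at least 6000 bases, 54 were higher and 181 lower beyond counting error. By the rule of size 37 of those 323 (11.5%) were lower. ATRX, a remodeller of heterochromatin, was at 15.9 CPM in NT against 6.06 in CON and 11.8 in GSK484 (log2 fold -1.39, interval -1.54 to -1.24). CHD1, a remodeller that reads methylated histone H3, was at 33.4 CPM in NT against 16.2 in CON and 24.2 in GSK484 (log2 fold -1.04, interval -1.14 to -0.95). BAZ2B, a bromodomain protein gene whose counts were partly shared with other genes, was at 7.96 CPM in NT against 3.87 in CON and 5.47 in GSK484 (log2 fold -1.04). ATRX, CHD1 and BAZ2B were the 3 members of the list past the rule of size, and none of them passed it with the trend removed (-0.88, -0.69 and -0.69).

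Further lower genes with long coding sequences are given singly, as the naming rule chose them. BRCA2, a gene of homologous recombination repair, was at 6.51 CPM in NT against 2.36 in CON and 4.403 in GSK484 (log2 fold -1.46, interval -1.71 to -1.23). RIF1, a regulator of replication timing and repair choice, was at 41.3 CPM in NT against 16.5 in CON and 27.2 in GSK484 (log2 fold -1.32, interval -1.41 to -1.23). APC, the tumour suppressor that holds down WNT signalling, was at 18.03 CPM in NT against 6.91 in CON and 11.7 in GSK484 (log2 fold -1.38, interval -1.52 to -1.25). BDP1, a subunit of the RNA polymerase III factor TFIIIB, was at 18.4 CPM in NT against 6.82 in CON and 11.3 in GSK484 (log2 fold -1.44). AKAP11, an anchor of protein kinase A, was at 19.01 CPM in NT against 7.28 in CON and 13.4 in GSK484 (log2 fold -1.38), and BOD1L1, a protector of stalled replication forks, at 21.8 CPM in NT against 7.93 in CON and 15.3 in GSK484 (log2 fold -1.46). In each of these genes CON was lowest, GSK484 next and NT highest. Without the trend BRCA2 (-1.06), BDP1 (-1.04) and BOD1L1 (-1.25) kept their call, while RIF1 (-0.82), APC (-0.96) and AKAP11 (-0.87) lost it. TPR, RANBP2 and KTN1 were lower as well at high levels. TPR, of the nuclear pore basket, was at 168, 71.1 and 127 CPM in NT, CON and GSK484 (log2 fold -1.24), and RANBP2, of the pore's cytoplasmic filaments, at 109, 46.6 and 86.1 CPM in NT, CON and GSK484 (log2 fold -1.22), both with counts shared between genes. KTN1, a kinesin anchor of the endoplasmic reticulum, had whole counts and was at 303, 137 and 253 CPM in NT, CON and GSK484 (log2 fold -1.14). These 3 lost their call without the trend, at -0.94, -0.78 and -0.70.

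A few lower genes lay off the trend of composition and length. GNL3L (ENSG00000130119), a nucleolar GTPase gene, has 52.6% GC and a coding sequence of 1746 bases. It was at 12.3 CPM in NT against 4.82 in CON and 5.53 in GSK484 (log2 fold -1.35, interval -1.52 to -1.19), and at -1.43 with the trend removed. POMK (ENSG00000185900), a kinase that modifies dystroglycan, has 50.7% GC and was at 1.70 CPM in NT against 0.340 in CON and 0.218 in GSK484 (log2 fold -2.30, interval -2.94 to -1.74), and at -2.40 with the trend removed. In GNL3L and POMK both CON and GSK484 were low and NT was high. ALMS1, a centrosomal gene of long coding sequence (12504 bases), was at 19.5 CPM in NT against 7.59 in CON and 13.4 in GSK484 (log2 fold -1.36, and -1.25 with the trend removed). HSP90AA1, the stress-inducible cytosolic HSP90, was at 3504, 2136 and 3302 CPM in NT, CON and GSK484 with counts shared between genes (log2 fold -0.71, trend removed -0.60). Its list of heat shock genes and co-chaperones had 7 of 25 higher, 13 lower and a median of -0.03. HSP90AB1, the constitutive form, was at 2837, 2755 and 2872 CPM in NT, CON and GSK484 (log2 fold -0.04), and HSPA1A, the inducible HSP70, at 198, 192 and 207 CPM in NT, CON and GSK484 (log2 fold -0.05), both chosen after their values were seen and both with shared counts.

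**Figure D4:**
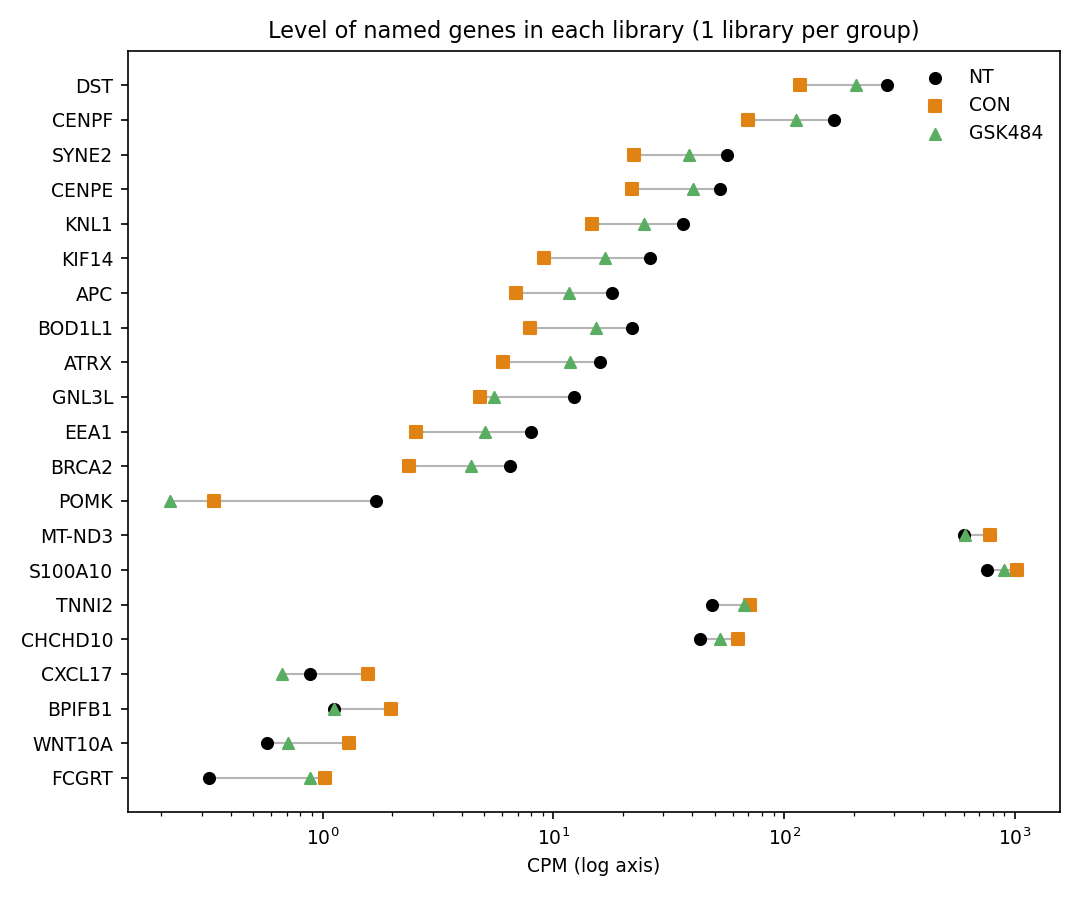
The level in CPM (horizontal, log axis) is given for 21 named genes with whole counts in NT (black circles), CON (orange squares) and GSK484 (green triangles), each 1 library without error bars. From DST to BRCA2 the CON square is the lowest of the 3 points and the NT circle the highest; in POMK the GSK484 triangle is lowest, and from MT-ND3 down the CON square is the highest.

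Few genes were higher by the rule of size, and those with whole counts were weakly expressed. The genes named in this paragraph with a level in NT under 1 CPM entered the measured set only through CON, where they were high. This holds for each of them. With a minimum of 5 CPM in either library, 6 higher genes remained. FCGRT (ENSG00000104870), the neonatal Fc receptor that recycles antibodies and albumin, was at 0.323 CPM in NT against 1.02 in CON and 0.886 in GSK484 (log2 fold 1.64, interval 0.99 to 2.39). WNT10A (ENSG00000135925), a WNT ligand of skin appendages, was at 0.575 CPM in NT against 1.30 in CON and 0.706 in GSK484 (log2 fold 1.17, interval 0.66 to 1.73). SCNN1D, a subunit of the epithelial sodium channel, was at 0.842 CPM in NT against 1.71 in CON and 1.31 in GSK484 (interval of the log2 fold 0.58 to 1.48), and VAMP5, a vesicle SNARE, at 0.533 CPM in NT against 1.07 in CON and 0.668 in GSK484 (interval 0.46 to 1.59). SCNN1D and VAMP5 lie so near a fold of 2 that a small change of scale ends their call. The noncoding AATBC (0.533, 1.26 and 1.14 CPM in NT, CON and GSK484) and SDCBP2-AS1 (0.505, 1.05 and 0.809 CPM in NT, CON and GSK484) completed the named higher genes with whole counts, with log2 folds of 1.23 and 1.05. SDCBP2-AS1 is antisense to another gene, and the strand setting of the counting is not known, so its value is uncertain.

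Among well expressed protein-coding genes the higher differences were smaller. S100A10, the annexin A2 partner p11, was at 757 CPM in NT against 1024 in CON and 896 in GSK484 (log2 fold 0.44, interval 0.42 to 0.45). TNNI2, a troponin gene, was at 48.9 CPM in NT against 71.2 in CON and 66.8 in GSK484 (log2 fold 0.54, interval 0.48 to 0.60). CHCHD10, a protein of the mitochondrial intermembrane space, was at 43.1 CPM in NT against 63.0 in CON and 52.6 in GSK484 (log2 fold 0.55, interval 0.48 to 0.61). All 3 have short coding sequences, of 291, 546 and 447 bases, and with the trend removed their log2 folds were 0.16, 0.23 and 0.10. ADIRF, an adipogenesis regulator, was the 1 gene of at least 50 CPM that was higher by the rule of size, at 102, 212 and 193 CPM in NT, CON and GSK484 (log2 fold 1.06), with counts shared with other genes.

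Short genes of the ribosome and the mitochondrion were slightly higher together. All 42 measured cytosolic ribosomal protein genes were higher beyond counting error, with a median of 0.21, and 37 of them had counts shared with other genes. Scaled by DESeq2 size factors 41 were higher and 0 lower, and scaled to total counts 41 and 1. RPS28 of the small subunit was at 326, 422 and 358 CPM in NT, CON and GSK484 (log2 fold 0.37), and RPLP2 of the ribosomal stalk at 753, 940.1 and 818 CPM in NT, CON and GSK484 (log2 fold 0.32). With the trend removed the list's median was -0.03. Of 20 mitochondrial ribosomal protein genes 15 were higher and 4 lower, with a median of 0.12 that became -0.05 without the trend. Nuclear genes of the respiratory chain had 28 of 32 higher, 2 lower and a median of 0.16, and 0.02 without the trend. COX5A, a subunit of cytochrome c oxidase, was at 195, 246 and 213 CPM in NT, CON and GSK484 (log2 fold 0.33).

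Genes of the mitochondrial genome itself kept more of their difference. Of 13 measured, 12 were higher and 1 lower beyond counting error, with a median of 0.21, and 0.11 with the trend removed. None passed the rule of size. MT-ND3, a complex I subunit with whole counts, was at 604 CPM in NT against 781 in CON and 605 in GSK484 (log2 fold 0.37, interval 0.35 to 0.39). MT-ND6, the subunit encoded on the other strand, was at 504, 751 and 556 CPM in NT, CON and GSK484 (log2 fold 0.57), and MT-ND1 at 2424, 3289 and 2044 CPM in NT, CON and GSK484 (log2 fold 0.44), both with shared counts. MT-ND4L, chosen after its value was seen as the lower one, was at 277, 256 and 150.3 CPM in NT, CON and GSK484 (log2 fold -0.12). In MT-ND1 and MT-ND4L the GSK484 library was lowest.

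Secreted and surface defence genes of epithelium were more often higher than lower. Of 24 listed genes 14 were measured, and 2 had a count of 0 in both NT and CON. Of the 14 measured, 10 were higher and 1 lower beyond counting error, against 35.5% and 29.4% of all measured genes. The median was 0.38, and 0.14 without the trend. Over members of at least 5 CPM the median was 0.22. CXCL17, a mucosal chemokine, was at 0.884 CPM in NT against 1.58 in CON and 0.668 in GSK484 (log2 fold 0.83, interval 0.40 to 1.29). It entered the measured set only through CON, where it was high. BPIFB1, a secreted defence protein of airways and glands, was at 1.12 CPM in NT against 1.98 in CON and 1.12 in GSK484 (log2 fold 0.82, interval 0.43 to 1.22). Both were highest in CON and changed little with the trend removed, at 0.71 and 0.70. LCN2, which binds bacterial siderophores, was the most abundant member, at 94.0, 129 and 83.6 CPM in NT, CON and GSK484 (log2 fold 0.46, and 0.19 without the trend), and was chosen after its value was seen. SAA1, an acute phase protein gene with shared counts and likewise chosen afterwards, was the lower one, at 3.60, 2.92 and 3.55 CPM in NT, CON and GSK484 (log2 fold -0.30). IL36RN, the antagonist of the interleukin-36 receptor from the list of NF-kB and interleukin-1 genes, was at 0.743, 1.32 and 0.886 CPM in NT, CON and GSK484 (log2 fold 0.82). IL36RN likewise entered the measured set only through CON.

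**Figure D5:**
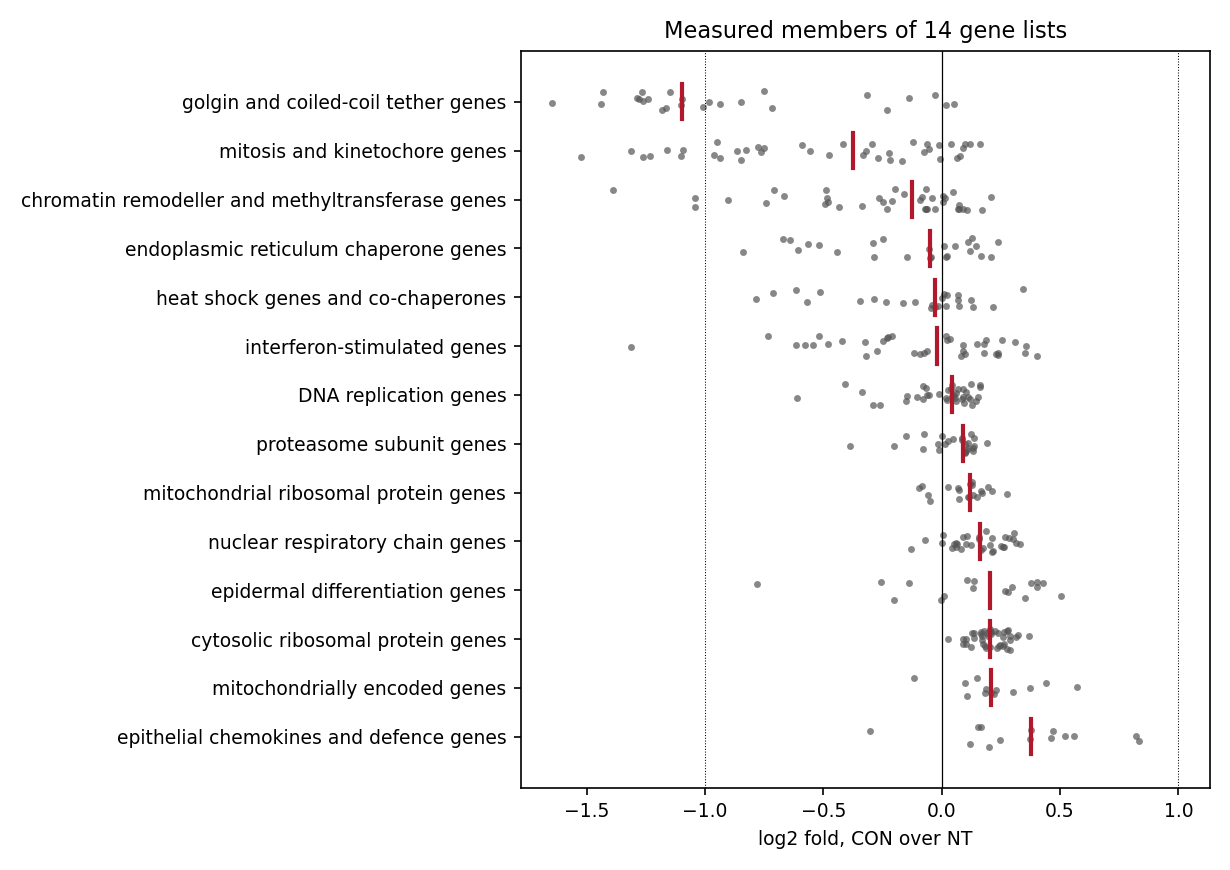
Each grey point is the log2 fold of CON over NT (horizontal) of 1 measured gene, in 14 of the 45 gene lists (vertical), the red lines are list medians, and the dotted lines mark a fold of 2. Medians run from -1.09 for golgins and coiled-coil tethers to 0.38 for chemokines and defence genes, and the cytosolic ribosomal protein genes lie all to the right of 0 (scaled to total counts, 1 of 42 was lower beyond counting error).

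Measured genes of keratinocyte differentiation were also more often higher. Of 36 listed epidermal differentiation genes 18 were measured, and 8 had a count of 0 in both NT and CON. Of the 18 measured, 10 were higher and 2 lower, with a median of 0.20 and 0.07 without the trend. Over all measured genes 35.5% were higher and 29.4% lower. Below 1 CPM, CALML5 was higher and KRTDAP and SBSN were lower beyond counting error. KRT10, the keratin of suprabasal cells, was at 21.1 CPM in NT against 28.4 in CON and 24.4 in GSK484 (log2 fold 0.43), and KLK10, a kallikrein protease with shared counts, at 75.8 CPM in NT against 100.2 in CON and 68.5 in GSK484 (log2 fold 0.40). SCEL, a protein of the cornified envelope with a less GC-rich transcript (37.5%), was lower, at 19.7 CPM in NT against 11.4 in CON and 14.4 in GSK484 (log2 fold -0.78). Basal epithelial genes, the attachment and keratin genes of the basal layer, gave 11 of 29 higher, 15 lower and a median of -0.02. ITGB1, the common beta integrin, was at 664, 475 and 558 CPM in NT, CON and GSK484 with shared counts (log2 fold -0.48). Epithelial and luminal genes gave 19 of 30 higher, 4 lower and a median of 0.08. ELF3, an epithelial transcription factor, was at 123, 153 and 101 CPM in NT, CON and GSK484 with shared counts (log2 fold 0.32).

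The stress and signalling lists that follow had medians close to that of all genes, and single genes stood out in them. Medians this near 0, and the counts of higher and lower members beside them, can turn with the scaling. Endoplasmic reticulum chaperones gave 7 of 25 higher, 13 lower and a median of -0.05. Genes of ATF4 and the amino acid response gave 17 of 27 higher, 4 lower and a median of 0.07, but 8 higher and 7 lower by total counts. DDIT3, the CHOP factor, was at 4.47, 6.97 and 6.04 CPM in NT, CON and GSK484 with shared counts (log2 fold 0.64), and SLC7A11, the cystine carrier, at 41.0, 21.1 and 32.5 CPM in NT, CON and GSK484 (log2 fold -0.96). Antioxidant genes of NRF2 gave 18 of 30 higher, 6 lower and a median of 0.09. Targets of p53 gave 10 of 24 higher, 6 lower and a median of 0.04, with GDF15, a stress cytokine, at 83.5, 114 and 78.1 CPM in NT, CON and GSK484 (log2 fold 0.44). Hypoxia genes gave 9 of 24 higher, 8 lower and a median of 0.04, and HIF1A itself, with shared counts, was at 197, 108 and 153 CPM in NT, CON and GSK484 (log2 fold -0.87). Interferon-stimulated genes gave 10 of 38 higher, 15 lower and a median of -0.02. SAMD9, an antiviral gene, was their 1 call, at 27.8, 11.2 and 17.1 CPM in NT, CON and GSK484 (log2 fold -1.31, and -0.78 without the trend). Immediate early genes gave 19 of 39 higher, 4 lower and a median of 0.08, and 15 higher and 9 lower by total counts.

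Further lists are given by their counts and medians, which also shift with the scaling. Metallothionein and zinc response genes gave 1 of 7 higher, 4 lower and a median of -0.14, led by the zinc importer SLC39A10 at 19.4, 9.90 and 15.2 CPM in NT, CON and GSK484 (log2 fold -0.97). Of 37 listed replication-dependent histone genes 19 were matched to a gene ID and 7 were measured. Those measured gave 4 of 7 higher, 0 lower and a median of 0.13. Below 1 CPM, H2AC7, H2AC11 and H4C3 were lower and H2AC13 was higher beyond counting error. Antigen presentation genes gave 8 of 15 higher, 3 lower and a median of 0.12, with the tapasin gene TAPBP at 74.7, 94.5 and 99.8 CPM in NT, CON and GSK484 (log2 fold 0.34). Proteasome subunits gave 17 of 26 higher, 5 lower and a median of 0.09, and lysosome and autophagy genes 15 of 30 higher, 4 lower and 0.08. ULK1, the kinase that starts autophagy, was at 24.5, 32.7 and 28.2 CPM in NT, CON and GSK484 (log2 fold 0.42). Cholesterol and fatty acid synthesis genes were balanced, with 13 of 31 higher, 11 lower and a median of 0.01. Targets of YAP and TEAD gave 6 of 25 higher, 13 lower and a median of -0.06, and glucocorticoid receptor targets 2 of 12 higher, 5 lower and -0.10. Mesenchymal factors gave 6 of 19 higher, 4 lower and a median of 0.03, with TWIST1 at 5.41, 6.85 and 5.82 CPM in NT, CON and GSK484 (log2 fold 0.34).

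Of the list of arginine deiminases and arginine methyltransferases 7 of 12 measured were higher and 2 lower, with a median of 0.10, and none passed the rule of size. PADI4 was weakly expressed, at 0.659 CPM in NT against 0.680 in CON and 0.603 in GSK484, with a log2 fold of 0.04 within counting error (interval -0.53 to 0.62). PADI2, the form best known in breast, was at 65.0 CPM in NT against 80.0 in CON and 64.1 in GSK484 (log2 fold 0.30, interval 0.25 to 0.35). PADI3 was at 134, 149 and 131 CPM in NT, CON and GSK484 (log2 fold 0.16), and PADI1 at 10.9, 12.8 and 11.1 CPM in NT, CON and GSK484 (log2 fold 0.23). PADI1 and PADI3 are known from keratinised epithelium. PADI1, PADI2 and PADI3 were thus highest in CON, and their log2 folds without the trend were 0.21, 0.32 and 0.14. Of 18 measured breast stem cell markers 5 were higher and 6 lower beyond counting error, with a median of 0.05. CD44, a surface marker of such cells, was at 842, 828 and 921 CPM in NT, CON and GSK484 (log2 fold -0.02), and ALDH1A3, the main source of aldehyde dehydrogenase activity in many breast lines, at 1746, 1656 and 1603 CPM in NT, CON and GSK484 with shared counts (log2 fold -0.08). POU5F1, a pluripotency factor gene with pseudogene copies and shared counts, was at 2.67, 3.79 and 2.89 CPM in NT, CON and GSK484 (log2 fold 0.51). ITGB3, the beta-3 integrin, was at 1.88, 1.47 and 0.719 CPM in NT, CON and GSK484 (log2 fold -0.35, interval -0.71 to 0.00). NEGR1, a neuronal adhesion gene, was at 1.25, 0.614 and 1.62 CPM in NT, CON and GSK484 (log2 fold -1.02, interval -1.53 to -0.53), lowest in CON and past the rule of size, and at -0.63 without the trend it was not.

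The extreme folds belonged to genes whose reads were shared out with an overlapping or similar gene, and their values are uncertain. CXCR5 (ENSG00000160683), a chemokine receptor gene of B cells, had a count of 0 in NT and was at 13.5 CPM in CON, at least 320.3-fold higher against the floor of 3 counts in NT. In GSK484 its count also rounded to 0. GTF2IRD1P1, a pseudogene, had a count of 0 in NT and 1.07 CPM in CON (at least 25.4-fold higher), and ZBTB45P1, another, 1.06 CPM in NT and a count of 0 in CON (at least 32.1-fold lower). LYSMD3, a membrane protein gene, was at 6.96 CPM in NT against 1.23 in CON and 6.68 in GSK484 (log2 fold -2.49). Pairs that share exons moved in opposite directions. The readthrough gene GCOM1 was at 0.750, 6.92 and 2.39 CPM in NT, CON and GSK484 (log2 fold 3.20), while MYZAP, which it spans, was at 9.89, 3.64 and 8.97 CPM in NT, CON and GSK484 (log2 fold -1.44). The readthrough POC1B-GALNT4 was at 0.687, 1.94 and 3.26 CPM in NT, CON and GSK484 (log2 fold 1.49), while GALNT4, a glycosyltransferase chosen after its value was seen, was at 4.70, 1.73 and 0.836 CPM in NT, CON and GSK484 (log2 fold -1.44). JMJD7, which overlaps a neighbour in a readthrough locus, was at 4.31, 14.3 and 13.4 CPM in NT, CON and GSK484 (log2 fold 1.73), and BOLA2, which has a near-identical copy, at 40.4, 75.04 and 41.5 CPM in NT, CON and GSK484 (log2 fold 0.89). The part of the division of reads in these differences was not tested.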

How the data were processed

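RNA of 3 MCF10Ca1h libraries (NT, CON, GSK484) was sequenced as paired-end reads of 125 bp from a stranded total RNA kit, per the labels' protocols. RSEM and hg19 were used, per the submitters' processing notes. The RSEM version, aligner, annotation release and strand setting were not given in the sources used here. The deposited expected counts are the authors' estimates of reads per gene, raw and in part fractional, per the file headers. The deposited TPM are scaled to the same total in each library, per the file headers, and served as an alternative. Other deposited values, gene length and effective length, are in bases, per the file headers.

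Expected counts were scaled to CPM with TMM factors (1.01, 0.981 and 1.01 for NT, CON and GSK484) from edgeR 4.0.16 in R 4.3.3. DESeq2 1.42.0 gave alternative size factors, and the remaining steps used Python 3.11.15, scipy 1.17.1 and patsy 1.0.2. The log2 fold of CON over NT used a prior count of 0.5. Counts rounded to whole numbers gave its 95% interval, an exact binomial (Clopper-Pearson) one conditional on their sum. PCR copies cannot be told from molecules, so intervals and floors cover counting error only. Calls needed a fold of at least 2, an interval that excluded no difference and 1 CPM in either library. Whole counts were within 0.005 of a whole number in both libraries. The trend on GC content and effective length was a natural spline of 5 degrees of freedom each, fitted to protein-coding genes that reached 10 CPM in both libraries. The scripts were tested on simulated data.

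Symbols, gene types, GC content and coding sequences came from GENCODE 29 and a gene name table by gene ID. GENCODE 29 is on another build, so coordinates were left out. Symbols were known for 12534 of 13221 measured genes and GC content for 12850. The 45 lists held 1195 entries, of which 36 were not matched. The named genes have symbols and effective lengths of 200 bases or more. They were up to 12 called genes a direction with whole counts and 8 with shared counts, ranked by whichever bound of the interval lay closer to 0. Added were 10 a direction of at least 50 CPM, 8 a direction of at least 10 CPM with the trend removed, the leading members of each list and preset PADI and stem cell genes. Genes outside this rule are said to be chosen after their values were seen. Members, lists and rules were chosen with earlier results of these data known. The summed level of the leukocyte markers is not reported here.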

Additional observations from a re-analysis of the deposited data

How the results depend on the processing

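No paired analysis was possible because each group is 1 library. With 1 library a group no spread between cultures is known, CON and NT also differ in depth, and the handling of NT is not described, so compound, handling and library cannot be told apart. As reported, 44 genes were higher and 178 lower by the rule of size. The counts were 6 and 118 with a minimum of 5 CPM, 535 and 785 with no minimum, and 231 and 847 with a fold of 1.5. They were 20 and 49 with the trend on GC content and effective length removed, and 11 and 21 when coding A content and coding length were added to the trend, an alternative chosen after the data were seen. Only 9 higher genes had whole counts. Lower genes made up 80.2% of calls as reported, 71.0% with the trend removed and 88.5% by deposited TPM. TPM moved the median of all genes by -0.11, and the TPM medians that follow are relative to it.

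A median counted as moved where its shift exceeded the median half-width of its single members' counting intervals. That measure is narrow for abundant genes and is no error of the median itself. Medians that moved kept their sign in the mitochondrially encoded genes (0.17 by total counts, 0.19 by DESeq2 factors, 0.18 with whole counts, 0.11 with the trend removed, 0.19 by TPM, 0.17 with the added trend). So did those of mitosis genes (-0.67 with whole counts, -0.17 with the trend removed, -0.11 with the added trend) and golgins (-0.96, -0.65 and -0.48, and -0.83 by TPM). Cytosolic ribosomal protein genes were at 0.16 by total counts, 0.19 by DESeq2 factors, 0.23 with whole counts and 0.18 by TPM. They turned to -0.034 with the trend removed and -0.0098 with the added trend.

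A median counted as turned where its sign changed and its reported size exceeded the same half-width. With the trend removed other medians turned: mitochondrial ribosomal protein genes (-0.046), glycolysis (-0.028), NRF2 (-0.016), antigen presentation (-0.021), YAP and TEAD targets (0.031), collagen and matrix (-0.0015) and epithelial defining markers (-0.032). With the added trend the values were -0.041, -0.042, -0.012, -0.032 and 0.022 for the first 5 and -0.0030 for the markers. That trend also turned nuclear respiratory chain (-0.0031), immediate early (-0.020), chromatin remodeller (0.032) and lysosome genes (-0.0038). By total counts the markers were at -0.0015. These values are near 0, and the cause was not tested. Some medians no larger than their half-width also changed sign, among them that of DNA replication genes (-0.016 with the trend removed). Of 256 named genes 54 were past the rule of size, and 27 of these lost the call with the trend removed.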

Other observations

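The 330 measured antisense genes had a median log2 fold of 0.21, with 136 higher and 37 lower beyond counting error, and the 174 lincRNA genes a median of 0.17, with 73 higher and 19 lower. With the trend removed these medians were 0.09 and 0.11. The 11729 protein-coding genes had a median of 0.02, with 4117 higher and 3672 lower, and the 265 processed pseudogenes a median of 0.15, with 96 higher and 30 lower (-0.04 with the trend removed). Because the strand setting of the counting is not known, reads of an antisense gene and its partner cannot be told apart. Among 28 measured long noncoding RNAs of a list of abundant ones, 19 were higher and 4 lower, with a median of 0.20 (0.07 with the trend removed). ZFAS1, a host gene of small nucleolar RNAs, was at 78.2, 99.5 and 86.6 CPM in NT, CON and GSK484 (log2 fold 0.35). MALAT1, a nuclear RNA of splicing speckles, was lower, at 80.6, 57.0 and 66.2 CPM in NT, CON and GSK484 (log2 fold -0.50, and -0.17 with the trend removed). KRAB and other zinc finger genes named ZNF, which code for DNA-binding repressors, gave 51 of 322 higher, 129 lower and a median of -0.10, and -0.05 with the trend removed.

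Gene IDs without a symbol held 23 of the 44 higher and 28 of the 178 lower calls, although they were 687 of the 13221 measured genes. ENSG00000265150 was at 223, 11.9 and 16.6 CPM in NT, CON and GSK484 (log2 fold -4.23), and ENSG00000258232, an antisense gene, at 37.7 CPM in NT with a count of 0 in CON and GSK484 (at least 1147-fold lower in CON against the floor). ENSG00000263182 was higher, at 0.141, 2.46 and 2.43 CPM in NT, CON and GSK484 (log2 fold 4.07), and ENSG00000244324 had a count of 0 in NT and GSK484 and 2.66 CPM in CON (at least 63.2-fold higher). All 4 had counts shared with other genes and were chosen after their values were seen. So was RN7SL4P, a pseudogene of the 7SL RNA of the signal recognition particle, at 1.23, 0.126 and 0.160 CPM in NT, CON and GSK484 (log2 fold -3.23).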
